A study of Rattus norvegicus and Mus musculus with 9 samples.

Results

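The mitochondrial ribosomal proteins are the nuclear-encoded protein subunits of the ribosome that works inside mitochondria. Their genes were taken as every array row whose only gene symbol starts with Mrpl or Mrps followed by a digit, with 1 probe set per symbol, the one with the highest mean over the table. This gave 71 of 14506 genes on the rat arrays, 44 with large subunit names (Mrpl) and 27 with small subunit names (Mrps), and 77 of 19938 genes on the mouse arrays. The names mrpl9, mrpl11 and mrpl24 are spelled in lower case in the annotation and are kept so.

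3 groups of cells were measured on microarrays, with 3 arrays each. Rat embryonic stem (ES) cells of strain DA were kept in 3I medium, as the labels name it. Mouse ES cells of strain C57/BL6 were kept in GMEM with serum (10% FBS) and the cytokine LIF, and feeder cells were removed from them; for the rat ES cells no such removal is stated. Rat embryonic fibroblasts, also of strain DA, were grown in GMEM with 10% serum and are the reference for the rat ES cells. The labels name no clone, passage or age. Whether arrays of one group stem from separate cultures is not stated, so a p-value here covers array-to-array spread, possibly only technical. Cell type and medium differed together between the rat groups and cannot be told apart.

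The mitochondrial ribosome descends from that of the bacterial ancestor of mitochondria. It translates the few messenger RNAs of the mitochondrial genome, all of which encode membrane subunits of the oxidative phosphorylation complexes. Its ribosomal RNAs are made in the organelle, while all its proteins are made in the cytosol and imported. Some of these proteins have a counterpart in the bacterial ribosome, and others were gained in the mitochondrial lineage.

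The labelled cell types were checked first. All 9 measured ES cell markers of 12 listed (among them Pou5f1, Nanog and Sox2) were higher in rat ES cells, with medians of 10.53 to 10.70 on rat ES arrays and 4.78 to 5.05 on fibroblast arrays (log2 signal). Of 12 fibroblast markers, 11 were lower in rat ES cells and none higher, with medians of 7.44, 7.86 and 8.07 on rat ES arrays 1 to 3 and 11.95 to 11.99 on fibroblast arrays. Levels of these markers in rat ES cells were uneven: Fn1 averaged 12.58 and Col1a1 10.15, while Lum averaged 3.67 and Dcn 3.83. Their medians differed among the 3 rat ES arrays. The median deviation of the ribosomal protein genes from their group mean was 0.011, 0.013 and -0.013 on the same 3 arrays. In mouse ES cells, 8 of the 9 ES cell markers and 2 of the 12 fibroblast markers lay above the 75th percentile, against 9 and 5 in rat ES cells. The median percentile of the fibroblast markers was 53.7 in mouse ES cells and 68.0 in rat ES cells. Of the markers of other cells, 2 of 6 for primitive endoderm were lower, 2 of 5 for muscle were lower, 2 of 5 for blood and 3 of 5 for endothelium were higher, and 1 of 5 was lower in each of the last 2 lists. The part of any other cell type in the results was not tested. In RNA of whole cultures, fewer cells of a type and less RNA per cell cannot be told apart.

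Promoters are shown for the members with the largest differences in each direction and for the 3 Mrps18 genes, relatives of each other, so that they can be set beside the values that follow. The 6 genes listed first had higher signals in rat ES cells and the last 3 had lower signals. Each line holds 130 bases, 100 before the annotated start and 30 from the start on, 5′ to 3′ on the gene's own strand, from RefSeq on build GRCr8. Capitals mark matches on either strand to CCGGAAG (the core bound by GABPA and other ETS factors), to the NRF1 letters (GCGC, any base, then TGCGC) or to AAGATGGC (YY1). Mrps21 has more than 1 annotated start, and the one listed first in the table is shown.
Mrpl42, chr7:32028493-32028622, minus strand: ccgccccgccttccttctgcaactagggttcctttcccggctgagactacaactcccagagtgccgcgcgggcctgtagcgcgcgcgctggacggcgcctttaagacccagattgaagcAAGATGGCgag
Mrps18b, chr20:2842906-2843035, plus strand: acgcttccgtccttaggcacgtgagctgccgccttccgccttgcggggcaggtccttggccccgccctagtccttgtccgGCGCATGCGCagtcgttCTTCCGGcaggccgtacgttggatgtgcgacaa
Mrps18a, chr9:22367351-22367480, minus strand: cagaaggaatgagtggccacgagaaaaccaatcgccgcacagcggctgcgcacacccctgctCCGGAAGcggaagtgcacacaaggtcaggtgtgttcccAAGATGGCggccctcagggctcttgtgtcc
Mrps18c, chr14:9122877-9123006, minus strand: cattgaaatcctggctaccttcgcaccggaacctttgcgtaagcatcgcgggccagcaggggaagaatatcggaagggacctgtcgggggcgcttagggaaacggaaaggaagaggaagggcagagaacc
Mrps5, chr3:135274233-135274362, plus strand: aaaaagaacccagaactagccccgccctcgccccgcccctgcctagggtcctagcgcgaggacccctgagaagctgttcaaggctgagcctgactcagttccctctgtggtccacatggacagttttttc
Mrpl47, chr2:117447332-117447461, minus strand: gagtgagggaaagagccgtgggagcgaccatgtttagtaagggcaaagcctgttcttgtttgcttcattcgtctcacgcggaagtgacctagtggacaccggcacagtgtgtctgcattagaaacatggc
Mrps21, chr2:186103322-186103451, minus strand: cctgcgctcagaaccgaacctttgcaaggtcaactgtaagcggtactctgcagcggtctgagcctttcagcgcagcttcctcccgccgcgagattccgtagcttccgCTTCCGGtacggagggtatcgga
Mrpl17, chr1:169575670-169575799, minus strand: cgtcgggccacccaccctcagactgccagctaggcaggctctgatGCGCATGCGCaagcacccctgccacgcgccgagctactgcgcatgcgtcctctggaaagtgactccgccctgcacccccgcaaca
Mrpl41, chr3:28179726-28179855, minus strand: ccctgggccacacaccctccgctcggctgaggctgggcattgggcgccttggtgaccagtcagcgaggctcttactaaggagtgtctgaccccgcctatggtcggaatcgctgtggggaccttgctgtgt
Among these stretches, Mrpl42 holds the YY1 letters after the start, and Mrps18a holds them at the start and an ETS match before it. Mrps18b holds an NRF1 match before the start and an ETS match across it, Mrps21 an ETS match after it and Mrpl17 an NRF1 match before it. No match lies within the bases shown of Mrps5, Mrpl47, Mrps18c and Mrpl41.

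The comparison of rat ES cells with rat fibroblasts asked how the pool of mitochondrial ribosomal protein mRNAs differed between pluripotent cells and differentiated cells of the same strain. Most of these genes were modestly higher in rat ES cells. At an adjusted p under 0.05 (limma across all 14506 genes, Benjamini-Hochberg), 56 of 71 were higher in rat ES cells, 4 were lower and 11 did not pass. Over all genes tested, 30.9% were called higher and 25.5% lower by the same rule, and 48.0% of the brighter genes, those with a mean signal over the median gene's, were called higher. The median log2 difference of the members was 0.58, a 1.49-fold difference, against 0.00 (-0.001) over all genes and 0.17 over the brighter genes. At a size of 2-fold or more, 16 members were called higher and 0 lower, where 10.6% of all genes were called higher and 10.1% lower. Of the 7253 brighter genes, 1210 were called higher at that size and 1098 lower. The signals of the 2 rat groups did not overlap in 58 members that were higher and 4 that were lower. Of all genes 33.2% lay higher and 28.3% lower without overlap, and of the 7253 brighter genes 3694 lay higher and 2578 lower.

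**Figure D1:**
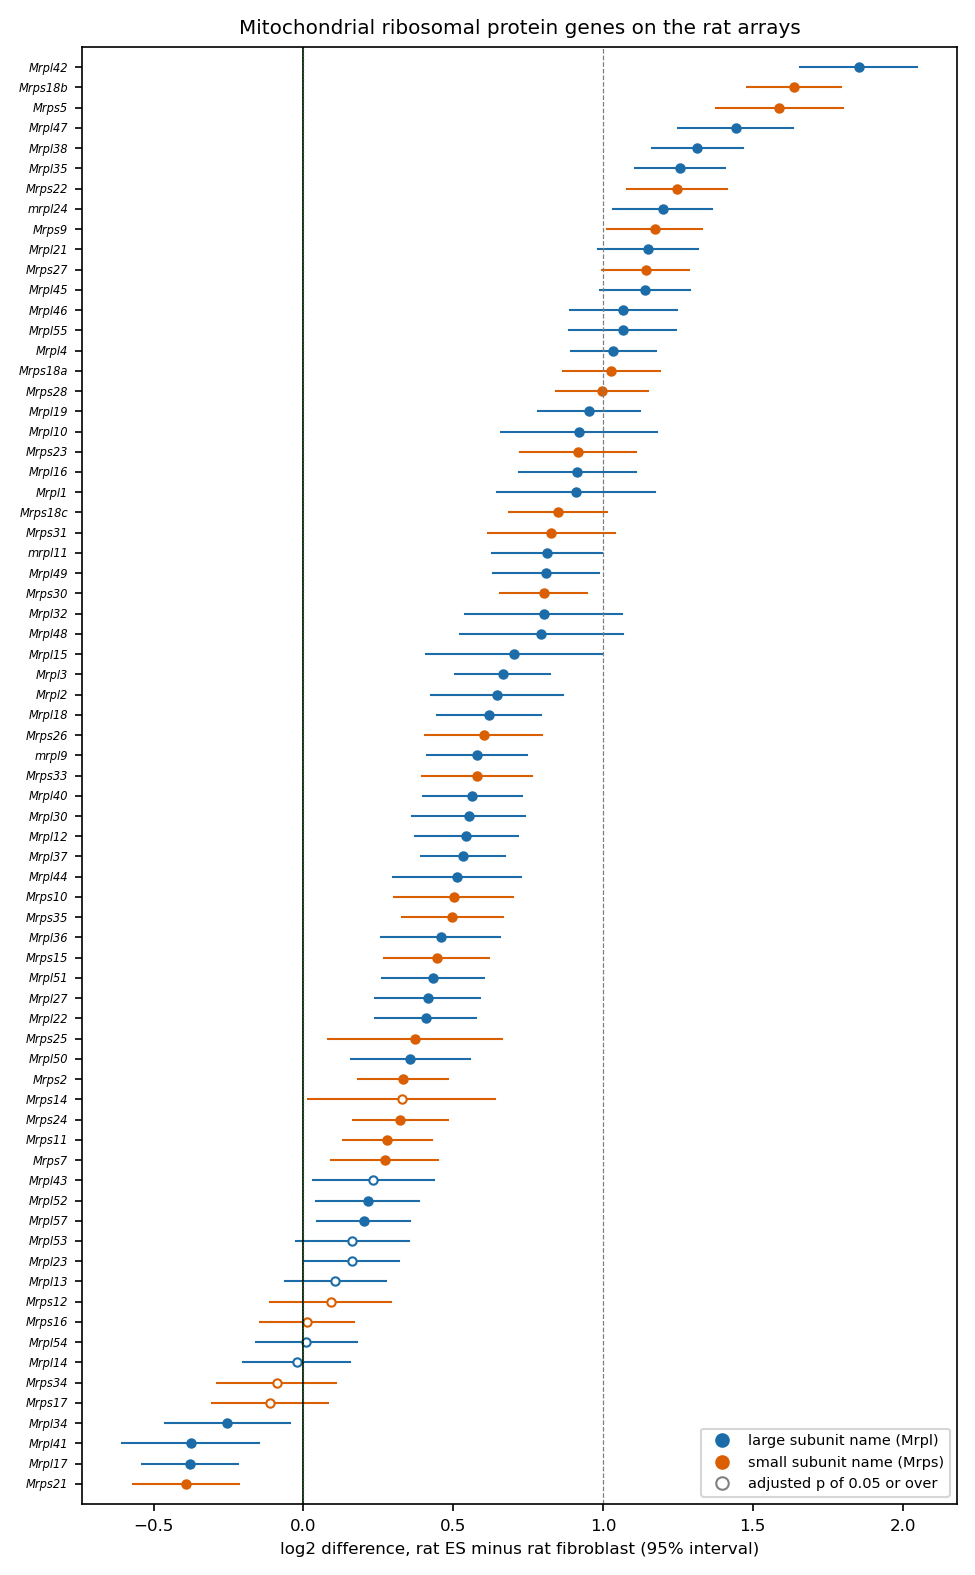
Log2 difference between rat ES cells and rat fibroblasts (x axis) for each of the 71 genes (rows), with the 95% interval from limma over 3 arrays per group; the dashed line marks a 2-fold difference and filled points have an adjusted p under 0.05. All but 7 points lie to the right of 0, and 16 lie beyond the dashed line.

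The members were spread without a clear gap, with log2 differences of -0.39 at the lowest and 1.85 at the highest; the quartiles were 0.30 and 0.94. Of the 56 higher genes, 14 differed by less than 0.5 and 26 by 0.5 to 1. The median difference was large beside the replicate spread, since the median SD over members was 0.078 in rat ES cells and 0.083 in fibroblasts. Mean signals of the members over the 6 arrays ran from 5.83 to 9.80. Only Mrpl32, a counterpart of bacterial L32, lay below an array's median signal over all its probe sets, in fibroblasts. Among the genes tested, Mrpl32, Mrpl50 and Mrpl14 lay below the 50th percentile in both rat groups. Mrpl1, Mrpl48 and Mrpl49 did so in fibroblasts only. The signal of a probe set depends on its probes as well as on the mRNA, so the levels of different members are not compared with each other on this scale.

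The largest difference was in Mrpl42, a subunit with no bacterial counterpart. Its log2 signal was 10.76, 10.78 and 10.64 on the rat ES arrays and 8.97, 8.91 and 8.73 on the fibroblast arrays. Every rat ES array lay above every fibroblast array, and the log2 difference was 1.85 (SE 0.08, limma adjusted p = 2.79e-07), or 3.62-fold. A lower-signal probe set of Mrpl42 gave means of 7.72 in rat ES cells and 6.31 in fibroblasts, and differed by 1.40. RefSeq lists 3 further loci named after Mrpl42, pseudogenes or like copies, and signal from such copies cannot be told apart from that of the gene here.

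Mrps18b is one of 3 related genes that correspond to the single bacterial protein S18. Mrps18b and Mrps18c proteins sit in the small subunit, while the Mrps18a protein is found in the large subunit despite its name. Mrps18b had log2 signals of 9.50, 9.59 and 9.59 in rat ES cells and 7.90, 7.99 and 7.88 in fibroblasts. The groups were far apart beside their spread, with a log2 difference of 1.64 (SE 0.07, limma adjusted p = 1.63e-07), or 3.11-fold. Mrps18a had 8.53, 8.69 and 8.66 in rat ES cells and 7.61, 7.63 and 7.56 in fibroblasts, with a log2 difference of 1.03. Mrps18c had 9.33, 9.40 and 9.27 in rat ES cells against 8.42, 8.55 and 8.48 in fibroblasts; the log2 difference was 0.85 (95% interval 0.69 to 1.01). All 3 were thus higher without overlap between the groups, and the interval of Mrps18b (1.48 to 1.79) lay above those of both relatives. These intervals are of different probe sets and cover array-to-array spread only, and a difference between the 3 genes was not tested. Pseudogenes named after Mrps18b and Mrps18c are listed in RefSeq.

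Mrps5, the counterpart of bacterial S5 in the small subunit, had signals of 9.05, 9.10 and 8.94 in rat ES cells against 7.27, 7.56 and 7.49 in fibroblasts. It was 3.01-fold higher, with all 3 rat ES arrays at or above 8.94 (log2 difference 1.59, SE 0.09, limma adjusted p = 1.08e-06). Mrpl47, the counterpart of bacterial L29, which lies near the exit of the peptide tunnel, had 8.80, 8.74 and 8.59 in rat ES cells against 7.37, 7.25 and 7.18 in fibroblasts. It was 2.72-fold higher, again with no overlap. Mrpl38 and Mrps22, both without a bacterial counterpart, differed by 1.32 and 1.25 on the log2 scale. Mrpl35 and mrpl24, with counterparts in the bacterial large subunit, differed by 1.26 and 1.20. The other members called at least 2-fold higher were Mrps9 (1.17), Mrpl21 (1.15), Mrps27 (1.14), Mrpl45 (1.14), Mrpl46 (1.07), Mrpl55 (1.07) and Mrpl4 (1.03). Mrps27 is a pentatricopeptide repeat protein, and Mrpl45 faces the inner membrane, into which the new peptides are inserted. Mrpl4 and Mrps18a lay just inside the 2-fold threshold, and Mrps28, at 0.996 on the log2 scale, just outside it.

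**Figure D2:**
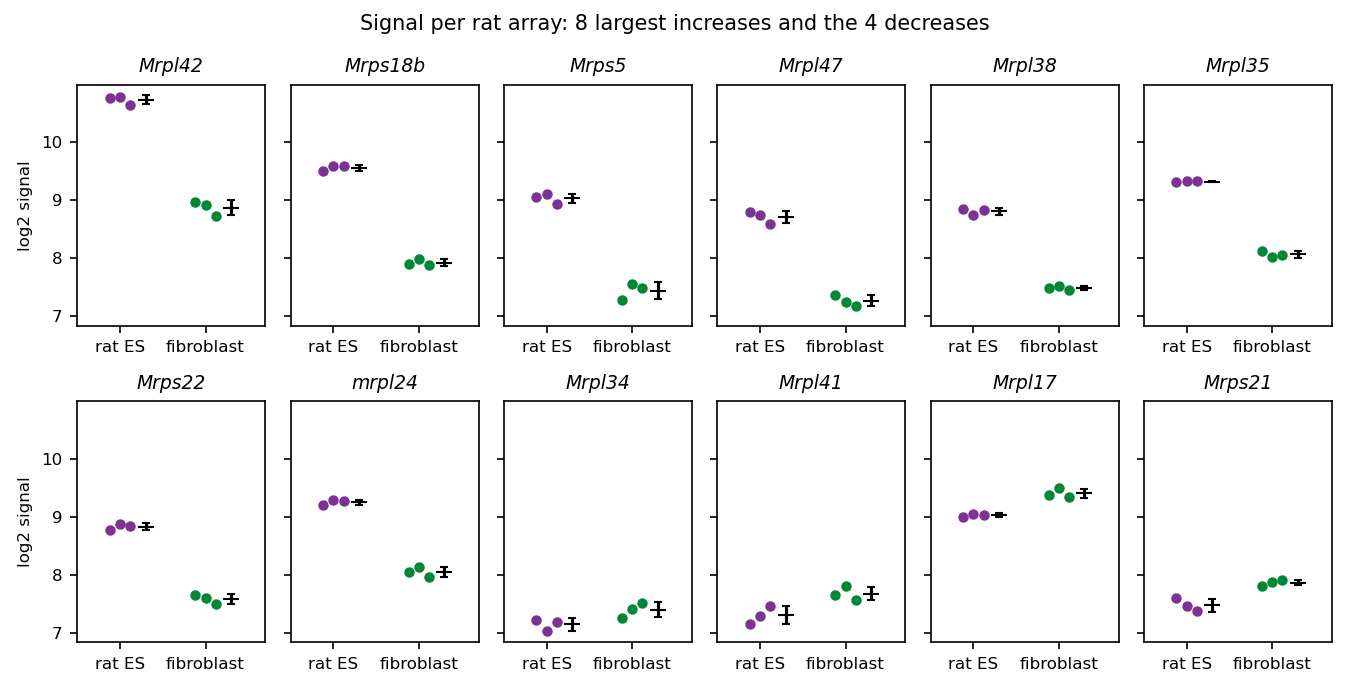
Log2 signal (y axis) on each of the 3 rat ES arrays and 3 rat fibroblast arrays for the 8 members with the largest increases and the 4 that were lower; points are arrays and the black bar is the mean with its SD. In all 12 panels the 2 groups do not overlap.

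Both name groups held mostly genes that were higher in rat ES cells. Of the 44 Mrpl genes, 35 were higher and 3 lower, with a median log2 difference of 0.60; of the 27 Mrps genes, 21 were higher and 1 lower, with a median of 0.50. Of 26 measured genes with large subunit names and a bacterial counterpart, 21 were higher and 2 lower (median 0.66). Of 17 listed with such names and no counterpart, 13 were higher and 1 lower (median 0.51). Mrpl55, higher by 1.07, was assigned to neither class and is not in these counts. Among genes with small subunit names, Mrps18a and Mrps30 included, 12 of 17 with a counterpart were higher and 1 lower (median 0.33), and 9 of 10 without one were higher and 0 lower (median 0.70). Differences between these classes were not tested.

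Some members were looked up for their place in the ribosome, with their values already known. The proteins of the flexible stalk that recruits translation factors were all higher: Mrpl10 by 0.92, mrpl11 by 0.81 and Mrpl12 by 0.54 on the log2 scale. Mrpl12, the counterpart of the bacterial stalk protein L7/L12, had 7.57, 7.52 and 7.68 in rat ES cells against 6.96, 7.07 and 7.11 in fibroblasts. At the decoding site of the small subunit, Mrps12 had 7.40, 7.16 and 7.31 in rat ES cells against 7.26, 7.25 and 7.08 in fibroblasts. These overlap, and the difference of 0.09 did not pass (95% interval -0.11 to 0.29, limma adjusted p = 0.428). Mrpl44, which resembles RNase III, was higher by 0.51. Mrps30, a protein of the large subunit despite its name, was higher by 0.80.

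The 4 genes that were lower changed little. Mrps21, the counterpart of bacterial S21, had 7.59, 7.46 and 7.37 in rat ES cells against 7.81, 7.87 and 7.91 in fibroblasts. Its groups did not overlap, and it fell by 0.39 on the log2 scale (SE 0.08, limma adjusted p = 0.00225). Mrpl17, the counterpart of bacterial L17, had 8.99, 9.05 and 9.03 in rat ES cells against 9.38, 9.49 and 9.33 in fibroblasts, and fell by 0.38. Mrpl41, which has no bacterial counterpart, had 7.15, 7.29 and 7.46 in rat ES cells against 7.65, 7.80 and 7.57 in fibroblasts, and fell by 0.38. Its second probe set gave -0.47, in the same direction. Mrpl34, the counterpart of bacterial L34, fell by 0.25 (limma adjusted p = 0.0410), but not after median centring (-0.20, adjusted p = 0.0951) or when any of 4 arrays was left out (rat ES array 2 or 3, fibroblast array 2 or 3), where adjusted p reached 0.137. RefSeq lists pseudogenes or like copies for Mrps21, Mrpl17 and Mrpl41 but none for Mrpl34.

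The 11 members that did not pass were Mrps14, Mrpl43, Mrpl23, Mrpl53, Mrpl13, Mrps12, Mrps16, Mrpl54, Mrpl14, Mrps34 and Mrps17. Of these, 8 had a positive difference, the largest being Mrps14 at 0.33 (95% interval 0.02 to 0.64, limma adjusted p = 0.0706). Mrpl54 was close to equal, with 9.28, 9.34 and 9.45 in rat ES cells against 9.31, 9.41 and 9.32 in fibroblasts, and its interval of -0.16 to 0.18 leaves out the median difference of the members. Mrpl14 had 5.96, 5.83 and 6.05 in rat ES cells and 5.97, 5.91 and 6.02 in fibroblasts, near the array medians of 5.71 to 5.74. A change that its probe set does not register could not be told from no change. The signs of Mrpl14, Mrpl54 and Mrps16 turned with the scaling, so no direction is given for them.

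Copies of a gene can limit what a single row means. By their symbols, RefSeq lists pseudogenes or like copies for 23 of the 71 members. No sequences were compared, and copies under unrelated names would be missed. Of these 23, 16 were higher and 3 lower (median 0.55), and of the 48 without such a copy 40 were higher and 1 lower (median 0.59). For the 4 symbols with 2 probe sets on the rat arrays, Mrpl40, Mrpl41, Mrpl42 and Mrps11, both probe sets had the same sign. Mrps11 gave 0.28 and 0.46, and Mrpl40 gave 0.56 and 0.61.

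Genes that serve the mitochondrial ribosome were read beside it. Of 15 genes listed for mitochondrial translation factors and related proteins, 9 were measured. Of these, 7 were higher and 1 lower, with a median log2 difference of 0.73. The elongation factor gene Gfm1 was higher by 1.36, the initiation factor gene Mtif2 by 1.06 and Gfm2, which encodes a factor of ribosome recycling, by 0.91. The 1 lower gene was Letm1, of an inner membrane protein listed with the factors, which fell by 0.24. Of 21 measured genes for assembly of the ribosome and modification of its RNA, 15 were higher and 0 lower (median 0.63). Grsf1, which encodes an RNA-binding protein of mitochondrial RNA granules, was higher by 2.52, Fastkd2 by 1.54 and the assembly GTPase gene Eral1 by 1.32. All 11 measured aminoacyl-tRNA synthetases of mitochondria were higher, with a median of 1.05, led by Rars2 (1.52), Hars2 (1.38) and Lars2 (1.33). Of 5 measured mitoribosomal proteins that go by other names, Ptcd3 was higher by 1.19 and Aurkaip1 and Dap3 fell by 0.35 and 0.25. That share, 1 of 5 higher, was below the background of 30.9%, over a list too short to be read further.

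**Figure D3:**
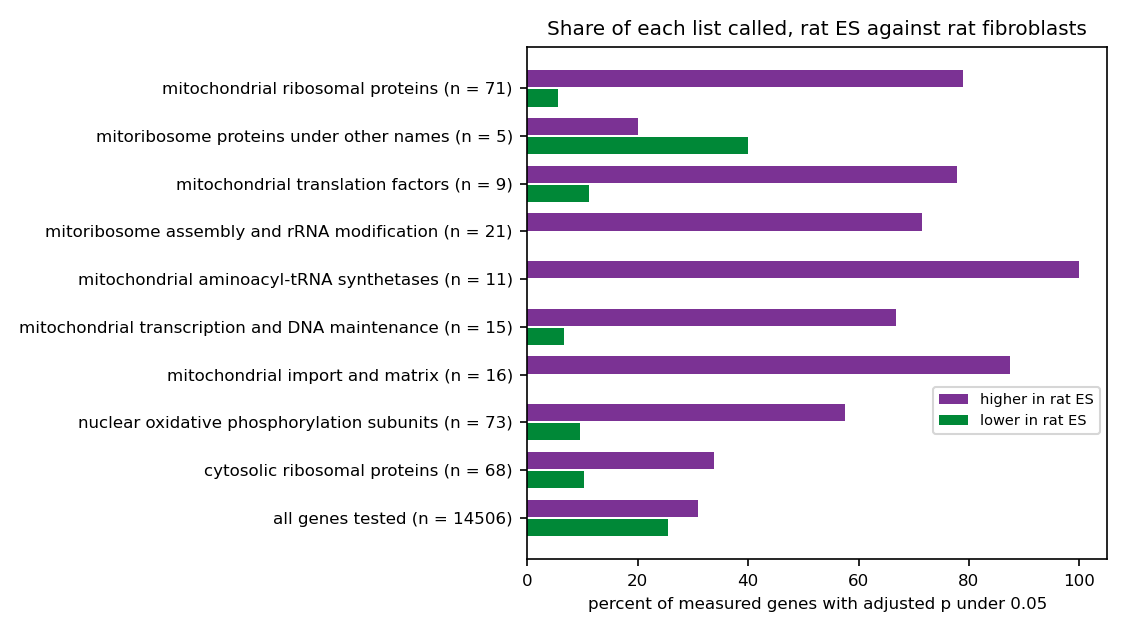
Percent of the measured genes of each list that were higher (purple) or lower (green) in rat ES cells than in rat fibroblasts at an adjusted p under 0.05, with all 14506 genes at the bottom. Mitochondrial ribosomal proteins were higher in 78.9%, cytosolic ribosomal proteins in 33.8% and all genes in 30.9%.

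The cytosolic ribosome gave other counts. Of 68 cytosolic ribosomal protein genes, 23 were higher and 7 lower, with a median of 0.11, and 0 were called at 2-fold in either direction. Rps4x (0.70), Rpl36a (0.69) and Rpl4 (0.62) led the higher ones, and Rps15a (-0.60), Rps21 (-0.56) and Rps13 (-0.37) the lower ones. Their 33.8% higher was near the 30.9% of all genes and below the 48.0% of the brighter genes. These genes lay near the top of the signal range in both groups, at a median percentile of 99.1 in rat ES cells and 99.1 in fibroblasts. The members lay at a median percentile of 77.6 in rat ES cells and 68.1 in fibroblasts. Of 73 nuclear genes for oxidative phosphorylation subunits, 42 (57.5%) were higher and 7 lower, with a median of 0.26. The 73 include those of complex II, which has no subunit made in mitochondria. Cox6b2 (2.41), Cox7b (1.58) and Sdhd (1.25) led the higher ones, and Cox6a2 (-0.68), Uqcrh (-0.60) and Atp5mc1 (-0.37) the lower ones. The difference between these lists was not tested.

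Of 15 genes for transcription and upkeep of mitochondrial DNA, 10 were higher and 1 lower (median 0.67). Tfam, which packages mitochondrial DNA and starts its transcription, was higher by 1.83, Mterf1 by 1.59 and the mRNA stability factor gene Lrpprc by 1.36, while Tfb2m fell by 0.32. Of 16 import and matrix genes, 14 were higher and 0 lower (median 0.74), led by the protease gene Lonp1 (1.31), Phb1 (1.12) and the import channel gene Tomm40 (1.09). Higher counts were thus measured across several mitochondrial lists, and the part of mitochondrial content in the members' difference was not tested.

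Of 8 measured nuclear regulators of mitochondrial genes, 6 were higher and 1 lower. Nrf1, a transcription factor for respiratory chain and mitochondrial genes, was higher in rat ES cells by 1.45 (mean log2 signal 8.63 in rat ES cells and 7.18 in fibroblasts). Gabpa, of an ETS-family factor that also acts on such genes, was higher by 0.68, Pprc1 by 0.45 and Yy1 by 0.20. The coactivator genes Ppargc1b and Ppargc1a were higher by 1.60 and 0.63, but Ppargc1a was dim throughout (mean 3.87 in rat ES cells, 3.24 in fibroblasts), under every array's median. Myc, which can raise genes of mitochondrial biogenesis, had 3.60, 3.99 and 4.78 in rat ES cells, below every array's median, against 7.47, 7.43 and 7.39 in fibroblasts. It was lower without overlap, and at such dim signals the size of its difference (-3.31) is uncertain. Esrra did not pass (-0.01, limma adjusted p = 0.888). The mRNA levels of these factors say nothing of their binding.

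Letters known from promoters of mitochondrial genes were counted in the RefSeq windows of 300 bases, 250 before and 50 after each annotated start on GRCr8. The table holds 59 promoters of 57 members, found by gene ID. Its promoters for genes on the rat arrays number 12518, and it has 33469 in all. The YY1 letters AAGATGGC, on either strand, were in 14 of the 59 (23.7%), in 4.2% of promoters of genes on the arrays and in 3.2% of all promoters. The ETS core CCGGAAG was in 18 of the 59 (30.5%), against 12.9% and 8.7%. The NRF1 letters were in 10 of the 59 (16.9%), against 7.2% and 4.3%. The E-box CACGTG was in 11.9%, against 7.8% and 6.4%. The Sp1 box GGGCGG was in 49.2%, near the 50.1% of genes on the arrays, and TATAAA in 13.6%, against 11.6%. Matches on either strand were counted for each motif alone, and overlaps between motifs were not removed.

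**Figure D4:**
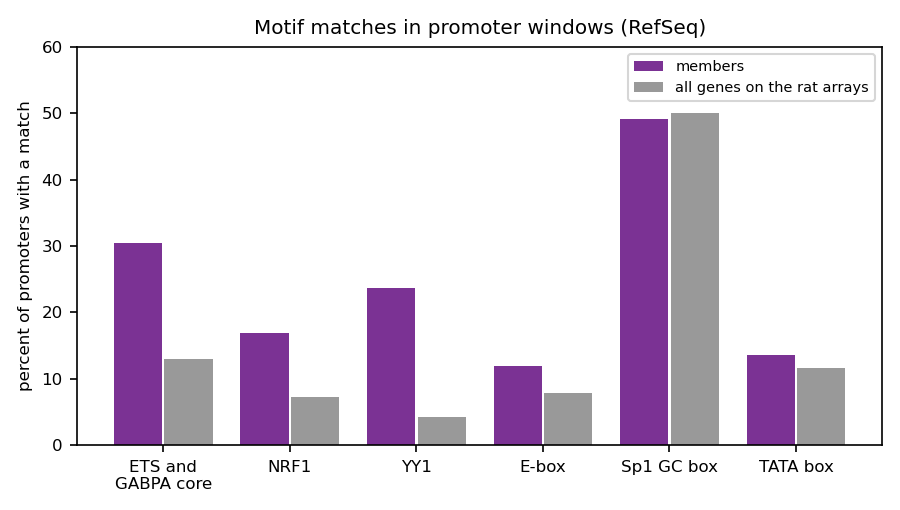
Percent of promoter windows with at least 1 match to each motif, on either strand, for the 59 promoters of the members (purple) and the 12518 promoters of genes on the rat arrays (grey). The YY1 bars stand at 23.7% and 4.2%, the ETS bars at 30.5% and 12.9%, and the Sp1 bars at 49.2% and 50.1%.

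All 14 promoters with the YY1 letters were of members called higher in rat ES cells, and so were 32 of the 45 without them. Most members were called higher in any case, 56 of 71, where 30.9% of all genes were. The members with the letters were Mrps7, Mrpl50, Mrpl36, Mrps10, Mrpl37, Mrpl48, Mrpl32, Mrps30, Mrpl49, Mrps18a, Mrpl46, Mrps27, Mrps18b and Mrpl42. Their log2 differences ran from 0.27 to 1.85 with a median of 0.80, against a median of 0.51 over the 45 promoters without the letters, which ran from -0.39 to 1.59. The letters were in 5 of 12 promoters of members at least 2-fold higher and in 0 of 13 promoters of members that were not called higher. Mrps21 and Mrpl14 have more than 1 promoter entry and so count more than 1 time in the 13 and the 45. The E-box was in 3 of the same 12 and 1 of the same 13. The share called higher among all genes on the arrays with the YY1 letters is not given here. For the ETS core the medians were 0.58 with it and 0.54 without it. With it 15 of 18 promoters were of members called higher, and without it 31 of 41. For NRF1 the medians were 0.57 and 0.54, with 8 of 10 and 38 of 49 called higher. In Mrpl42 the match began 20 bases from the start, counting the start as 1, and in Mrps18a at the start itself, as the lines above show. Of the 14 matches, 11 began at or after the transcription start. AAGATGGC contains the ATG and following G of a usual translation start, so such a match and a first codon cannot be told apart here. The call of Mrps7, the smallest of the 14, was lost when rat ES array 3 or fibroblast array 3 was left out (limma adjusted p up to 0.0569). No test was run on these counts.

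Genes that start back to back with a member were then looked up. Of the 57 members with a promoter entry, 18 (31.6%) had a gene starting on the opposite strand within 1000 bases, against 12.0% of all 33469 promoters. The second share counts promoters, not genes, and includes genes that are not on the arrays, so the 2 shares are not strictly alike. Of these partners, 12 that are not members themselves were on the arrays. Of the 12, 10 were higher in rat ES cells and 0 lower, with a median log2 difference of 0.56. By the same rule 30.9% of all genes and 48.0% of the brighter genes were called higher. The share among other genes that start back to back is not given here. Sizes in a pair were not alike. Mrpl47 was higher by 1.44 and its partner Ndufb5, a complex I subunit gene, by 0.06 (limma adjusted p = 0.539). Mrps7 was higher by 0.27 and its partner Gga3 by 1.46. Mrps27 and Ptcd2, both of pentatricopeptide repeat proteins, were higher by 1.14 and 1.24. Mrpl46 and Mrps11 are the only 2 members that face each other, and they were higher by 1.07 and 0.28.

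Mouse ES cells were set beside the rat groups only by rank, since the 2 tables are from different platforms and their values share no stated scale. Of the 77 mouse members, 70 are among the 12114 symbols shared by both tables. Among those symbols the median percentile of the members was 78.36, 78.19 and 77.92 on the 3 mouse ES arrays, and 73.86, 74.18 and 72.85 on the rat ES arrays. On the fibroblast arrays it was 64.79, 64.71 and 64.52. The mouse arrays share many exact values, from 16691 to 20845 of 35557 probe sets in a pair of arrays: 25 of the 77 members had the same value on all 3 and 24 a different value on each, while all 71 rat members differed on every array. The cause was not tested, and no SD or test is given for the mouse values.

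**Figure D5:**
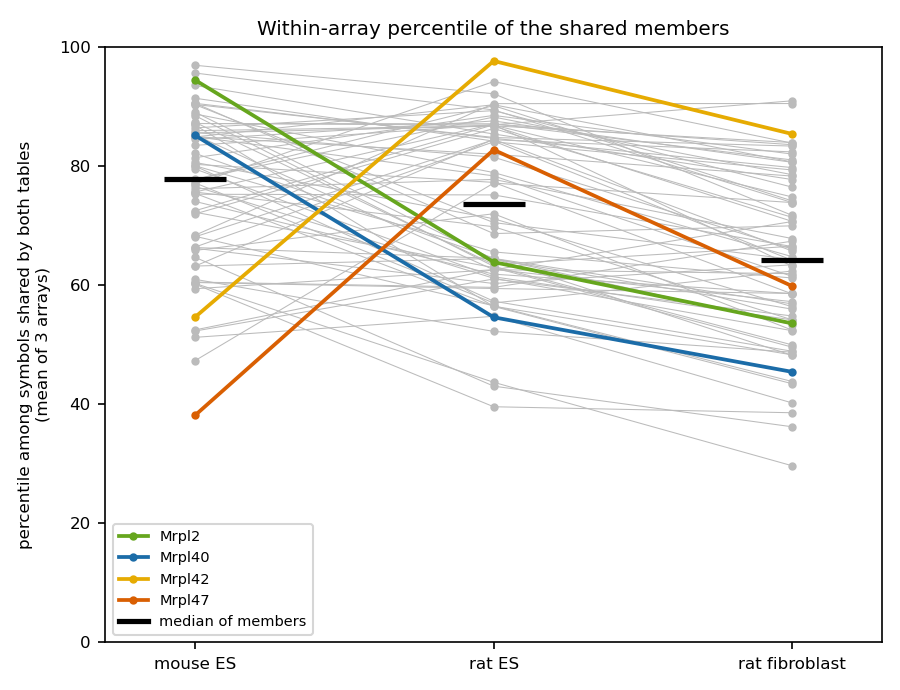
Mean within-array percentile (y axis) of the 70 shared members among 12114 shared symbols, in mouse ES cells, rat ES cells and rat fibroblasts (3 arrays each); lines join the values of 1 gene, black bars are medians and 4 members with the largest shifts between mouse and rat ES cells are coloured. The medians are 77.75, 73.57 and 64.25, and the rat values of Mrpl42 are those of its kept probe set.

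In mouse ES cells 68 of the 70 lay above the 50th percentile and 44 above the 75th, against 67 and 35 in rat ES cells and 57 and 18 in fibroblasts. In percentile, 49 of the 70 members (70.0%) lay nearer to rat ES cells than to rat fibroblasts, where 57.1% of all shared genes did. The rank order among members was only loosely alike, with Spearman's rho = 0.345 between mouse and rat ES cells and 0.264 between mouse ES cells and rat fibroblasts. These are across 70 genes on arrays with different probes, which are not independent replicates.

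The mean percentiles of single members differed between the 2 species. Mrpl2, a counterpart of bacterial L2, was at 94.34, 94.84 and 94.21 in mouse ES cells and averaged 63.87 in rat ES cells. The 3 mouse percentiles cannot be read as replicate spread where the value repeats: Mrpl2, Mrpl12, Mrpl47, Mrpl54 and Mrps22 each have 1 deposited value repeated on all 3 mouse arrays. Mrpl40 averaged 85.17 in mouse and 54.61 in rat ES cells, and Mrpl49 averaged 86.88 in mouse and 56.43 in rat ES cells. Mrpl11 and Mrpl12, of the stalk, were higher in mouse ES cells by 25.31 and 24.70 points. In the other direction, Mrpl47 was at 38.20, 37.84 and 38.34 in mouse ES cells and averaged 82.74 in rat ES cells. Mrpl42 was at 60.36, 45.39 and 58.11 in mouse ES cells and averaged 97.66 in rat ES cells. These rat ranks rest on the kept probe set: with the rat probe set of lower signal, an alternative chosen after seeing the data, Mrpl42 averaged 66.38 in rat ES cells and its difference of -43.04 (mouse ES minus rat ES) became -11.76. For Mrps11, Mrpl54 and Mrps22 the differences (mouse ES minus rat ES) were -29.83, -22.11 and -21.30 points, and that of Mrps11 became -18.44 with its other rat probe set. Species, platform and medium differ together here and cannot be told apart.

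A further 7 mouse members have no counterpart row in the rat table as used here. Mrpl39 was at percentile 96.51 among all mouse genes, Mrpl28 at 86.15, Mrpl58 at 84.77, Mrpl20 at 80.59 and Mrps6 at 80.57. Mrpl33 (50.65) and Mrps36 (46.31) were lower, and the product of Mrps36 is also known as a subunit of the oxoglutarate dehydrogenase complex.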

How the data were processed

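Values deposited by the authors are log2 signals, 1 per probe set and array, with rat (6 arrays) and mouse (3 arrays) in separate tables. Biotin-labelled single-stranded DNA from total RNA was hybridized, with 1 label on each array, per the labels' protocols. The log2 scale was read from the range of the values, since the sources used here give no normalization or other step. Array medians were 5.71 to 5.74 in the rat table and 4.75 to 4.77 in the mouse table, and the number of arrays limits the precision.

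Genes were named by the platform annotation, whose symbols may be outdated. On the rat arrays, 15310 of 29215 probe sets had 1 symbol, 323 several and 13582 none listed; of 35557 mouse probe sets 21789 had 1, 1621 several and 12147 none. Probe sets with several symbols were left out, among them 1 for Mrpl20 (rat) and 1 for Mrpl53 (mouse). All 71 rat members were found by gene ID in RefSeq (GRCr8), with 0 under another symbol.

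The rat test was limma's moderated linear model (version 3.58.1, R 4.3.3; group only, no filter), with Benjamini-Hochberg adjustment over all genes. On simulated data for this comparison, 200 of 14506 genes were changed. Of those changed by 0.5 on the log2 scale 54% were recovered, and of those changed by 1, 94%. In the simulation 6 unchanged genes were called. In the data 56.3% of genes were called, and the adjustment depends on that share. The simulated shares therefore do not give the recovery among the members. Same-numbered arrays of the 2 rat groups deviated together at r = -0.00044, 0.031 and -0.0003, which does not pair them. Percentiles were ranks within an array among shared symbols, case ignored. Named members are the 8 highest and 8 lowest differences, all called at least 2-fold or lower, the Mrps18 relatives, the extremes of signal and the 5 extremes of percentile difference each way; others were added with values known. The members, lists and motifs were chosen with earlier results of these data known. The alternatives tried are under the closing section.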

Additional observations from a re-analysis of the deposited data

How the results depend on the processing

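At the same thresholds, under the alternatives run (2 scalings, quantile and median centring; 2 level filters; other ways to join probe sets, eBayes with trend and robust settings, the replicate number as a block, leaving out each rat array), 53 to 60 members or probe sets were called higher and 3 to 5 lower, the median difference lay between 0.51 and 0.63, and 12 to 18 were at least 2-fold higher. Quantile normalization gave the 12, and counting each probe set apart gave the 60 and 5, of 75 probe sets. Leaving out 1 array gave 53 to 55 higher, 3 to 4 lower, 16 to 18 at 2-fold and medians of 0.56 to 0.59. The replicate block gave 54 higher and 3 lower, with a median of 0.58; it ended the calls of Mrpl34, Mrpl52 and Mrpl57. At an adjusted p under 0.01, 52 were higher and 2 lower, and at 1.5-fold 34 were higher, counts that follow from the stricter and the looser threshold.

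Calls near the threshold moved: over the alternatives 5 called members lost their call (Mrpl34, Mrpl52, Mrpl57, Mrps25 and Mrps7) and 3 gained one (Mrpl23, Mrpl43 and Mrps14). When single arrays were left out, adjusted p reached 0.137 for Mrpl34, 0.124 for Mrpl52, 0.103 for Mrpl57, 0.1 for Mrps25 and 0.0569 for Mrps7. Signs turned in 3 uncalled members. After quantile normalization Mrpl14 was at 0.049, Mrpl54 at -0.017 and Mrps16 at -0.088, and after median centring Mrpl14 was at 0.032. Leaving out arrays gave -0.073 to 0.034 for Mrpl14, -0.038 to 0.047 for Mrpl54 and -0.02 to 0.044 for Mrps16. The cause was not tested.

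The median mouse percentile was 83.27 among all named genes and 75.64 over the 23 members with 3 different mouse values, and the median difference of mouse ES minus rat ES, 3.58, became 5.89 and 0.89; the cause was not tested. The number of arrays and the signal over background, which is not known here, limit small differences. Leaving out 1 array gave 77.68 to 78.02 and 3.20 to 3.93. Since the mouse arrays share many exact values, neither range can be read as replicate spread. With the rat probe set of lower mean, an alternative chosen after seeing the data, the difference was -11.76 for Mrpl42, -18.44 for Mrps11, 30.74 for Mrpl40 and 2.10 for Mrpl41.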
